A study of Mus musculus with 10 samples.

Results

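The epicardium is the thin sheet of mesothelial cells on the outer face of the heart, and 10 genes known as markers of this sheet are described here in 3 regions of the mouse heart, namely right ventricle (RV), left ventricle (LV) and the septum between them (Septum). The genes were Msln, Wt1, Upk3b, Upk1b, Lrrn4, Krt19, Muc16, Gpm6a, Bnc1 and Dmkn. They were found on the arrays through the RefSeq accession of each probe. This gave 10 probes for 9 of the 10 genes, out of 22907 named genes with a probe, and Upk1b had more than 1 probe. Muc16 was not analysed here, because no probe matched it through an accession. The tissue came from hearts of C57BL/6N mice with no genetic change or treatment named in the labels, and neither age nor sex is given there. According to the study's methods, cold saline was perfused into both ventricles, the regions were separated and frozen, and RNA was taken from the powdered tissue. Each sample was read on 1 Agilent mouse array of a single colour, its RNA carrying the dye Cy3. The series has 4 RV, 3 LV and 3 Septum arrays. The design text says that different individuals were used for each experiment, but whether an array holds RNA of a single animal is not stated. The p-values therefore measure the spread between these samples.

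The epicardium arises from the proepicardial organ and grows over the free walls of both ventricles during development, while the septum lies inside the heart and faces both ventricular cavities. Mesothelial cells form a simple epithelium with keratin filaments, tight junctions and a surface coat of glycoproteins. Adult epicardium is known for its transcription factor Wt1 and for signals such as retinoic acid. In RNA from whole pieces of tissue, fewer cells of a type and less RNA per cell cannot be told apart.

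Every level below is a log2 signal relative to the 75th percentile of its own array, so that 0 marks the 75th percentile and a step of 1 is a factor of 2 in signal. Levels of different probes are not compared with each other. Between 53.7% and 64.0% of the 59305 spots that were not controls were well above background on an array, and none was saturated. The arrays lay on 2 slides. Replicates 1 and 2 of all regions shared slide 1, while the others (RV replicates 3 and 4 and replicate 3 of LV and Septum) shared slide 2. All 9 genes were among the 30234 probes tested, a probe being tested if all arrays of 1 or more regions had it well above background. Msln, Wt1, Upk3b, Upk1b, Krt19 and Gpm6a passed through more than 1 region. Lrrn4, Bnc1 and Dmkn passed through the RV alone, so that they had to be higher there and a count or median that holds them is a description. The main counts and medians over the 9 genes are therefore given with those over the other 6, of which Msln and Wt1 passed through all regions and the other 4 through the RV and the LV but not the Septum. Calls are adjusted p-values below 0.05 in limma, adjusted over all probes tested.

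Stretches of 250 bases upstream of the transcription start were taken from RefSeq (GRCm38.p6), which held 9 such promoter windows for 6 of the 10 genes. Dmkn and Gpm6a had more than 1 window, and some of those of Dmkn overlapped almost fully. Muc16, which was not analysed on the arrays, had a window too. Counts of windows are therefore not counts of genes. The windows were searched on both strands for the TEAD pattern GGAATG, the GC box GGGCGG, the TATA box TATAAA and the E-box CAGCTG. The patterns were searched separately, so their matches could overlap. Upk3b, Lrrn4 and Bnc1 are shown, the first pair because their RV and Septum levels lay furthest apart among the genes with a window, and Bnc1 because it is a transcription factor with a window of a different composition. Capitals mark the matches, to the TEAD pattern in Upk3b and Lrrn4 and to the GC box in Bnc1.
Upk3b, plus strand, chr5:136038246-136038495: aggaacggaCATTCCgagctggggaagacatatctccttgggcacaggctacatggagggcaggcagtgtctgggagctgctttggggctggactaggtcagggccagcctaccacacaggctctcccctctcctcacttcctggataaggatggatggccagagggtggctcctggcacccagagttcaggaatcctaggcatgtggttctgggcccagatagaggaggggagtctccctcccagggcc
Lrrn4, minus strand, chr2:132880863-132881112: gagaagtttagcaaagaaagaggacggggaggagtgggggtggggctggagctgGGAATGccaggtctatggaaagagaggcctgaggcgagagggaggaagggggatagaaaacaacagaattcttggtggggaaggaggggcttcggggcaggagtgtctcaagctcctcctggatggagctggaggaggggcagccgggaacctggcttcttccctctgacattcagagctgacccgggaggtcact
Bnc1, minus strand, chr7:81992300-81992549: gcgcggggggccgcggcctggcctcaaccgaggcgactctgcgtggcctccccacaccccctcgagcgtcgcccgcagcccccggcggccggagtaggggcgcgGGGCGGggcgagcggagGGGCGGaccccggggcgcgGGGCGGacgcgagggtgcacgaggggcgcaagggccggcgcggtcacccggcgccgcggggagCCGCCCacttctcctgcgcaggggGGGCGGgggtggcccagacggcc
The TEAD pattern was present in 3 of the 9 windows (Upk3b, Lrrn4 and Gpm6a), and 12.6% of all 32851 promoter windows of this length held it. The GC box was present in 1 of 9 windows, that of Bnc1 with 5 matches, against 32.7% of all windows. The TATA box was present in 1 window of Gpm6a (12.4% of all windows), and the E-box in 0 of 9 (13% of all windows). The Bnc1 window was 83.6% G and C, above Upk3b with 60.8%, Lrrn4 with 59.2% and the median of all windows with 52.4%. A match to these letters is a description of the sequence and not evidence of binding.

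Msln encodes mesothelin, a glycoprotein anchored in the mesothelial cell membrane that binds the mucin Muc16. In RV replicates 1 to 4 its level was 3.80, 3.75, 2.04 and 3.18. In LV replicates 1 to 3 it was 1.99, 2.24 and 1.14, and in Septum replicates 1 to 3 it was 0.66, -0.50 and -2.46. All Septum arrays lay below all LV arrays, and all of both below 3 of the 4 RV arrays. RV replicate 3 fell among the LV arrays, between LV replicates 1 and 2. The region means were 3.19 ± 0.82 (SD, n = 4) in the RV, 1.79 ± 0.58 (SD, n = 3) in the LV and -0.77 ± 1.58 (SD, n = 3) in the Septum. Msln was well above background on all 10 arrays, so that none of its values is a limit of detection. Its level in the Septum spread over more than 3 log2 units, from the Septum array of replicate 1 down to that of replicate 3.

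Upk3b and Upk1b encode uroplakins, membrane proteins first known from the bladder lining, and Upk1b belongs to the tetraspanin family. Upk3b lay at 0.88, 0.89, -0.69 and 0.28 in RV replicates 1 to 4, at -1.30, -1.18 and -2.30 in LV replicates 1 to 3, and at -1.99, -3.33 and -5.68 in Septum replicates 1 to 3. Every RV array was above every LV and Septum array, while Septum replicate 1 fell within the LV range. The brighter probe of Upk1b read 0.71, 0.75, -1.20 and -0.25 in the RV, -1.77, -1.42 and -2.66 in the LV, and -2.14, -3.14 and -5.54 in the Septum, in replicate order. This is the same arrangement, with the RV above the other regions and Septum replicate 1 inside the LV range. The dimmer probe of Upk1b gave -0.62, -0.77, -2.70 and -1.84 in the RV, -3.29, -2.91 and -5.55 in the LV, and -4.05, -5.21 and -5.53 in the Septum. It placed the RV above the LV and the Septum as well, but it was not well above background in LV replicate 3 or in Septum replicates 2 and 3. For Upk3b and the brighter Upk1b probe, Septum replicate 3 was the array below that limit.

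Krt19 encodes a keratin of simple epithelia. Its level was 0.97, 1.08, -0.54 and 0.56 in RV replicates 1 to 4, -1.21, -0.98 and -1.70 in LV replicates 1 to 3, and -1.97, -3.13 and -5.02 in Septum replicates 1 to 3. The regions did not overlap in any pair, and Septum replicate 3 was not well above background. Gpm6a, a membrane glycoprotein first described in neurons, read 0.17, 0.17, -1.36 and -0.44 in the RV, -1.64, -1.65 and -2.63 in the LV, and -1.79, -2.74 and -3.53 in the Septum. The RV arrays lay above all others, and the LV and Septum arrays overlapped. Lrrn4, a membrane protein with leucine-rich repeats, read -0.11, -0.08, -1.76 and -0.87 in the RV, -2.13, -2.28 and -3.60 in the LV, and -3.46, -5.97 and -5.55 in the Septum. Again all RV arrays were above the rest, with Lrrn4 well above background on 2 of 3 LV arrays and 1 of 3 Septum arrays.

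Wt1 encodes a zinc finger transcription factor of the epicardium, the kidney and the gonad. Its level was 0.66, 0.73, 0.44 and 0.69 in RV replicates 1 to 4, -0.30, -0.11 and 0.55 in LV replicates 1 to 3, and -0.65, -0.38 and 0.18 in Septum replicates 1 to 3. Wt1 covered a range of 1.38 over the 10 arrays, against 3.70 to 6.57 for the other 8 genes. LV replicate 3 lay above RV replicate 3, and within the LV and within the Septum the array of replicate 3 was the highest for Wt1. For Msln, Upk3b, Upk1b, Krt19 and Gpm6a the array of replicate 3 was the lowest of each region.

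Bnc1 encodes basonuclin 1, also a zinc finger protein. It was well above background on all 4 RV arrays, at -2.58, -2.47, -4.27 and -2.88, and on 0 of the 3 LV and 0 of the 3 Septum arrays. Its mean signal was at least 1.59-fold higher in the RV than in the LV and at least 1.88-fold higher than in the Septum. These bounds set the RV mean against, on each dim array, the higher of its own signal and the lowest signal well above background on that array. The means of those limits were -3.72 in the LV and -3.96 in the Septum. RV replicate 3, at -4.27, lay below both, so the bounds hold for the RV mean and not for each RV array. The measured means were -3.05 in the RV, -4.92 in the LV and -6.00 in the Septum. Dmkn encodes dermokine, a secreted protein first known from the epidermis, and it was the least regular of the set. It read 0.71, -0.13, -2.57 and -1.88 in the RV, -2.19, -2.54 and -4.46 in the LV, and -1.84, -4.84 and -4.75 in the Septum. Here RV replicate 3 lay below LV replicates 1 and 2, and Septum replicate 1 lay above RV replicates 3 and 4.

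**Figure D1:**
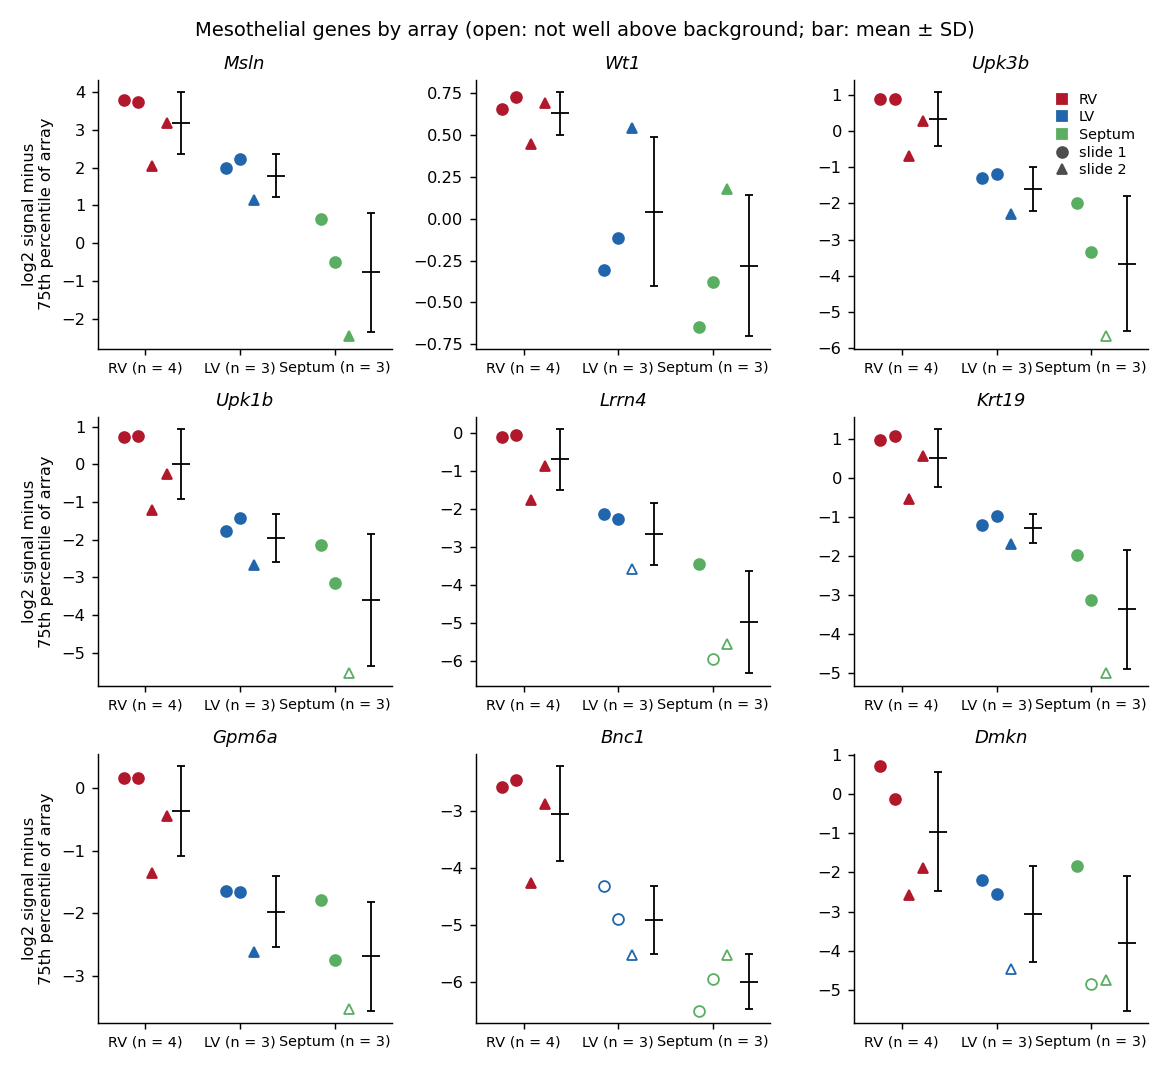
Level of the 9 mesothelial genes on each array, as log2 signal minus the 75th percentile of the array, for 4 RV, 3 LV and 3 Septum arrays, with circles for slide 1, triangles for slide 2, open symbols where the probe was not well above background and bars for the mean ± SD. The RV arrays were highest in each panel on average, RV replicate 3 (the lower triangle of the RV) was lowest within the RV, and the Septum arrays had the largest SD for each gene except Wt1 and Bnc1.

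The first comparison asked which genes separate the RV from the LV. All 9 mesothelial genes had a higher mean in the RV, by 0.59 for Wt1 up to 2.09 for Dmkn on the log2 scale, with a median difference of 1.87 (1.71 over the 6 genes that passed through more than 1 region) against -0.037 over all probes tested. In fold these were 1.5-fold for Wt1, 2.64-fold for Msln, 3.82-fold for Upk3b, 3.89-fold for the brighter Upk1b probe, 3.52-fold for Krt19 and 3.05-fold for Gpm6a. The 4 RV arrays did not overlap the 3 LV arrays for 6 of the 9 genes (all but Msln, Wt1 and Dmkn) and for 4 of the 6, while 8.1% of all probes tested were higher in the RV without overlap. None of these differences passed the test. By limma 0 of 9 genes were called, where 3.86% of all probes were called and 2.31% were called and higher in the RV. At an unadjusted p below 0.05 there were 7 of 9 (5 of the 6), as were 5992 of all 30234 probes. By Tukey's test after analysis of variance 1 of 9 passed before and 0 after adjustment, against 3998 and 784 of all probes. That adjustment, here and below, was of the analysis of variance over the 3 regions, and Tukey's p-values were not adjusted over probes. The adjusted p-values ran from 0.0547 for Bnc1 over 0.102 for Gpm6a, 0.157 for Krt19, 0.195 for Wt1, 0.198 for Upk1b and 0.199 for Upk3b to 0.303 for Msln. The standard errors were 0.69 for Msln, 0.76 for Upk3b and 0.77 for Upk1b.

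Calls appeared when the slide or the replicate number entered the fit. With slide as a block, 8 of the 9 genes and 5 of the 6 were called, all higher in the RV by 1.65 to 2.44, with adjusted p-values of 0.00402 to 0.0327, where 17.6% of all probes were called and 7.24% were called and higher in the RV. Wt1 was the exception, at 0.53 with an adjusted p of 0.0939. With the replicate number as a block, 6 of 9 genes and 4 of the 6 were called, with adjusted p-values of 0.0106 to 0.0444, against 14.9% of all probes and 6.23% called and higher in the RV. Msln (adjusted p = 0.0593), Bnc1 (0.0623) and Wt1 (0.131) were the genes not called there. Within slide 1 the RV minus LV differences of the 9 genes ran from 0.90 to 2.65, with a median of 2.12. Within slide 2, with 2 RV arrays and 1 LV array, they ran from 0.024 for Wt1 to 2.28, with a median of 1.94.

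**Figure D2:**
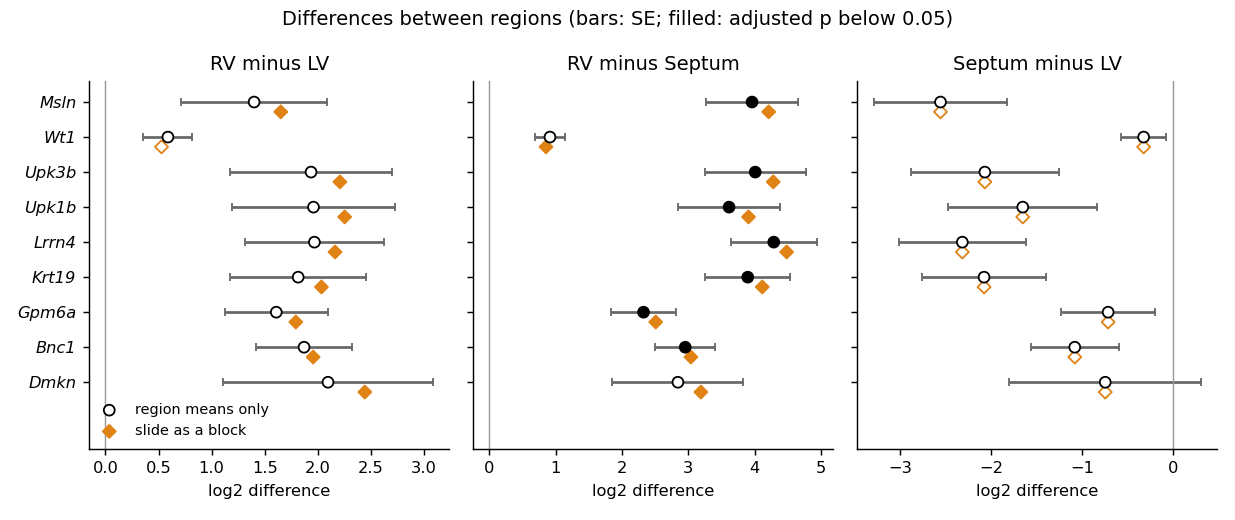
Difference between regions on the log2 scale for each mesothelial gene, with standard errors for the model of region means alone (circles) and the value with slide as a block (diamonds), filled where the adjusted p was below 0.05. RV minus LV had 0 filled circles and 8 filled diamonds, RV minus Septum had 7 filled circles and 9 filled diamonds, and Septum minus LV had none filled.

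Between the RV and the Septum the differences were wider. All 9 genes had a higher mean in the RV, by 0.91 for Wt1 up to 4.01 for Upk3b among the 6 that passed through more than 1 region, with a median of 3.61 over the 9 and 3.75 over the 6 against -0.032 over all probes. By limma 7 of 9 genes were called, where 2.08% of all probes were called and 1.2% were called and higher in the RV. Among the 6 genes that passed the background filter through more than 1 region, 5 were called. Of these 6, Msln (called) and Wt1 (not called) passed through the Septum as well. Upk3b, Upk1b, Krt19 and Gpm6a passed through the RV and the LV but not the Septum. Counts and medians over the 6 are therefore descriptions too in this comparison. Msln was 15.5-fold higher in the RV (log2 difference 3.96, SE 0.69, adjusted p = 0.0247). Upk3b was 16.1-fold higher (4.01, SE 0.76, adjusted p = 0.0329), and Upk1b was 12.2-fold higher by its brighter probe (3.61, adjusted p = 0.0486) and 10.9-fold by its dimmer probe (3.44, adjusted p = 0.0434). Krt19 was 14.9-fold higher (3.89, SE 0.64, adjusted p = 0.0204) and Gpm6a 5.0-fold (2.32, SE 0.48, adjusted p = 0.045). For Upk3b, the brighter Upk1b probe, Krt19 and Gpm6a the Septum mean includes 1 array that was not well above background, and for the dimmer Upk1b probe it includes 2 of 3, so these folds rest in part on signals near background.

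Of the genes that entered through the RV alone, Lrrn4 (log2 difference 4.29, adjusted p = 0.0148) and Bnc1 (adjusted p = 0.0152) were called against the Septum and Dmkn was not (2.84, SE 0.99, adjusted p = 0.226). Lrrn4 and Dmkn were not well above background on 2 of 3 Septum arrays, so the sizes of their differences are not measured levels on both sides. Wt1 did not pass either, at 0.91 (SE 0.23, adjusted p = 0.0901), although its RV and Septum arrays did not overlap. The RV and Septum arrays did not overlap for 8 of the 9 genes, Dmkn being the exception, and for 6 of the 6, while 5.86% of all probes were higher in the RV without overlap. With slide as a block 9 of 9 genes and 6 of the 6 were called (8.74% of all probes, 4.03% called and higher in the RV), Wt1 at 0.85 with an adjusted p of 0.0311 and Dmkn at 3.19 with an adjusted p of 0.0195. With the replicate number as a block 8 of 9 and 5 of the 6 were called (7.12% of all probes, 3.36% called and higher in the RV), and Wt1 was not (adjusted p = 0.0648). The number of genes called fell in most fits that left out a single array. That of all probes called fell from 628 in every such fit, to 118 without Septum replicate 2, 176 without Septum replicate 3 and 220 without RV replicate 4. It was 249 without RV replicate 1, 221 without RV replicate 2 and 542 at most. The number of mesothelial genes called was 0 without Septum replicate 2 and 1 without RV replicate 4. It was 2 without RV replicate 1, RV replicate 2 or Septum replicate 3, and 4 without LV replicate 1 or LV replicate 2. It was 6 without LV replicate 3 and 7 without RV replicate 3 or Septum replicate 1. Over the 6 genes the 5 calls became 0 without RV replicate 1, RV replicate 2, RV replicate 4 or Septum replicate 2, 1 without Septum replicate 3, 2 without LV replicate 1 or LV replicate 2, and 4 without LV replicate 3. Over the 9 genes the number called was also 0 without the filter on dim probes, where 112 of all probes were called. By Tukey's test it was 0 after adjustment of the analysis of variance over the 3 regions and 8 before, where 760 and 2754 of all probes passed. The median difference stayed between 3.0 and 4.35 in the fits that left out an array.

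The Septum lay below the LV for all 9 genes, by 0.32 for Wt1 to 2.56 for Msln in size, but no difference was called. The median difference, Septum minus LV, was -1.65 (-1.86 over the 6 genes) against -0.0092 over all probes. Neither the mesothelial genes (0 of 9) nor any other probe passed in limma (0% of 30234), and 862 probes, 4 of the 9 genes among them, had an unadjusted p below 0.05. Those genes were Msln (-2.56, unadjusted p = 0.00648), Lrrn4 (-2.32, 0.00823), Krt19 (-2.08, 0.0135) and Upk3b (-2.07, 0.0305), each with an adjusted p of 1.0. By Tukey's test after analysis of variance, 168 probes and 0 of the 9 genes passed after adjustment of the analysis over the 3 regions. Before it, 435 probes and 1 of the 9 genes passed. Tukey's p-values for Septum against LV were not themselves adjusted over probes, so the 168 are not counted as calls in this comparison. Msln, Krt19 and Bnc1 had all 3 Septum arrays below all 3 LV arrays, Bnc1 with no array above background in either region, while 3.45% of all probes were lower in the Septum without overlap. With slide as a block 0 of the 9 genes and 0.0463% of all probes were called, and with the replicate block 0 of 9. The mean order of the regions was thus RV, LV and Septum for each of the 9 genes, and the LV and Septum neighbours in that order overlapped for Wt1, Upk3b, Upk1b, Lrrn4, Gpm6a and Dmkn.

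Array by array, most of the mesothelial genes followed the same order, with Wt1 and Bnc1 less close to the rest. A score was taken as the mean over the 9 genes of the level minus the gene's own mean over the 10 arrays. It was 2.09, 2.03, 0.41 and 1.33 in RV replicates 1 to 4, 0.081, 0.086 and -0.84 in LV replicates 1 to 3, and -0.67, -1.82 and -2.70 in Septum replicates 1 to 3. All 4 RV arrays were above all LV arrays, and LV replicate 3 lay below Septum replicate 1. Over the 6 genes the score was 0.46 to 1.91 in the RV, -0.59 to 0.16 in the LV and -3.0 to -0.63 in the Septum, where LV replicate 3 lay just above Septum replicate 1. RV replicate 2 was the highest of the 10 arrays for 6 genes and RV replicate 1 for the other 3. Septum replicate 3 was the lowest array for 5 of the 9 genes, and 2 of the 9 were well above background on it, against 9 of 9 on each RV array. Lrrn4, Bnc1 and Dmkn passed the filter through the RV alone, so this contrast was in part fixed by the filter and is a description. Of all spots that were not controls, 54.2% were well above background on Septum replicate 3 and 56.2% to 64.0% on the RV arrays. RV replicate 3 was in the top 3 for 0 of 9 genes. The summed linear signal of the 9 genes ran from 8.12 to 24.8 over the RV arrays, from 4.65 to 7.70 over the LV arrays and from 1.55 to 3.62 over the Septum arrays, in units of the 75th percentile of an array. The regions did not overlap in this sum, though RV replicate 3 (8.12) and LV replicate 2 (7.70) lay close. Msln, with means of 3.19 in the RV and 1.79 in the LV, weighs most in the RV and LV sums, and its own RV and LV arrays overlapped. The sum also holds the genes that passed the filter through the RV alone and was not taken over the 6 genes, so it is a description. The slide 2 arrays had lower scores than those of slide 1 in each region, and slide, replicate number and individual cannot be told apart in that difference.

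Within slide 1 alone, both RV arrays were above both LV arrays and both Septum arrays for 9 of 9 genes, and both LV arrays were above both Septum arrays for 8 of 9, with Dmkn the exception. Within slide 2, both RV arrays were above the single LV array for 8 of 9 genes, with Wt1 the exception, and above the single Septum array for 9 of 9. The LV array was above the Septum array for 9 of 9. The 9 include Lrrn4, Bnc1 and Dmkn, which passed the filter through the RV alone. How many of all probes had such an order among so few arrays was not counted, so these counts are descriptions. The median RV minus Septum difference was 3.58 in slide 1 and 4.23 in slide 2.

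Across the 10 arrays the 28 pairs among the 8 genes other than Wt1 had Pearson correlations of 0.76 to 0.996, with a median of 0.94. Upk3b with Krt19 was the closest pair. After each region's mean was subtracted the same pairs ran from 0.12 to 0.99 with a median of 0.79, the low values being pairs with Bnc1. The 8 pairs of Wt1 ran from 0.36 to 0.76 with a median of 0.51, and from -0.67 to 0.12 with a median of -0.56 after the region means were subtracted. With region means subtracted, Wt1 had correlations of -0.61 with Msln, -0.67 with Upk3b, -0.61 with Upk1b and -0.57 with Krt19. This did not hold in each region, since in the RV both Wt1 and these genes were lowest in replicate 3, while in the LV and the Septum replicate 3 was the highest array for Wt1 and the lowest for them. These correlations describe 10 arrays that share 3 regions, 2 slides and a scaling factor per array, and they carry no test.

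Among 14613 genes compared, 89 genes outside the set had a correlation above 0.9 with the score. The 10 closest were C2 (0.996), Cyp2s1 (0.995), Krt42 (0.994), Slc23a3 (0.994), Slc39a8 (0.993), Rspo1 (0.993), AI661453 (0.991), Nkain4 (0.991), Prr15l (0.990) and Krt8 (0.989). C2 is complement component 2, Cyp2s1 a cytochrome P450, Slc39a8 a metal ion transporter, Rspo1 a secreted enhancer of Wnt signalling, and Krt42 and Krt8 are keratins. C2 read 1.83, 1.97, 0.71 and 1.54 in RV replicates 1 to 4, 0.20, 0.20 and -0.50 in LV replicates 1 to 3, and -0.42, -1.16 and -2.17 in Septum replicates 1 to 3. As in the score, RV replicate 3 was the lowest RV array and Septum replicate 3 the lowest of all. These genes were chosen for following the score, so their differences are given as descriptions. They were higher in the RV than in the Septum by 2.22 to 3.78 and than in the LV by 1.40 to 1.75. Their correlations after subtraction of region means were 0.96 to 0.99. By that second measure the 5 closest were Krt42 (0.99), AI661453 (0.99), Napg (0.98), Ndnf (0.98) and Apol9b (0.98), of which Napg and Ndnf hardly varied, with an SD over the arrays of 0.16 and 0.24.

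**Figure D3:**
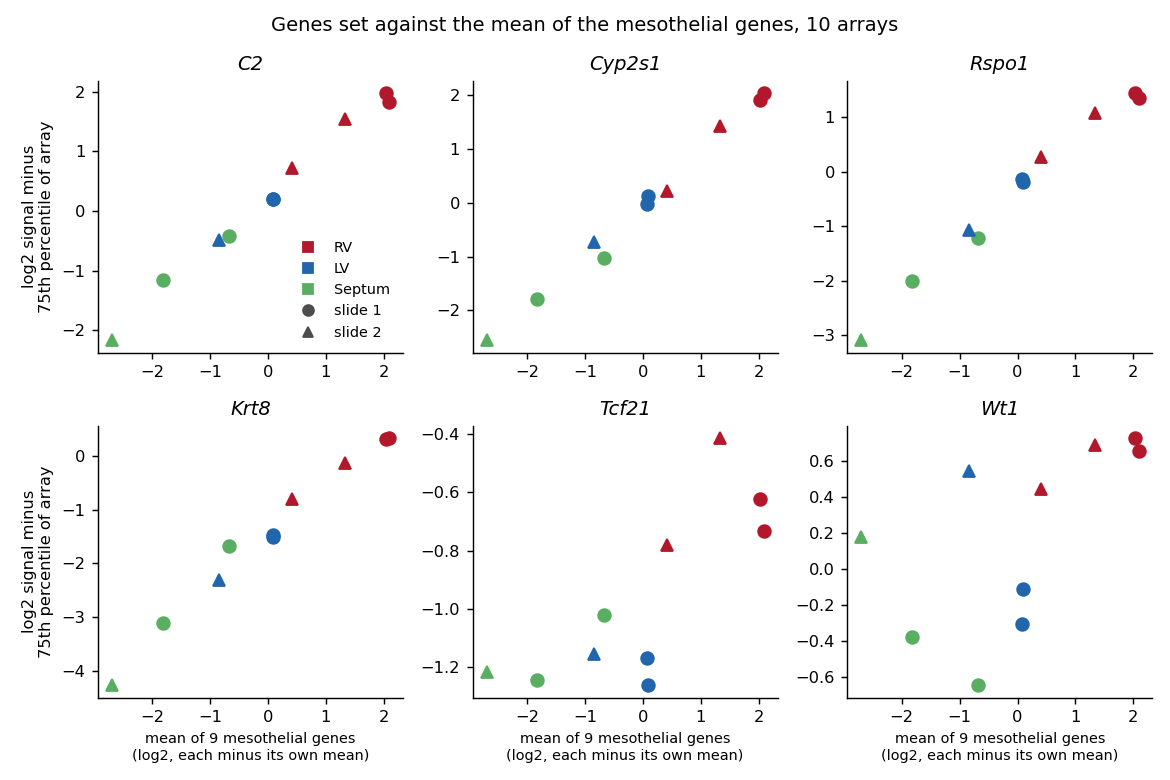
Level of 6 genes (log2 signal minus the 75th percentile of the array) against the score of the mesothelial genes (mean of 9 genes, each minus its own mean) on the 10 arrays, coloured by region with circles for slide 1 and triangles for slide 2. C2, Cyp2s1, Rspo1 and Krt8 rise along the score with correlations of 0.996, 0.995, 0.993 and 0.989, Tcf21 separates the RV from both other regions, and Wt1 has a correlation of 0.55 with the mean of the other 8 genes.

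A further 33 genes known from mesothelium or epicardium were listed by role, and 26 of them were tested. Against the LV, 7 of 26 were called and all 7 were higher in the RV, with a median difference of 0.92 over the 26. Of all probes 3.86% were called in that comparison, and 2.31% were called and higher in the RV. Against the Septum 11 of 26 were called, again all higher in the RV, with a median of 1.0. There 2.08% of all probes were called, and 1.2% were called and higher in the RV. Calls aside, 23 of the 26 had a higher mean in the RV than in the LV, and 22 than in the Septum. Podxl, Slpi and Cxadr had a lower mean in the RV than in both other regions. Prg4 was highest in the Septum (2.43, against 1.69 in the RV and 0.66 in the LV). None of these genes was called. Septum against LV gave 0 of 26 calls in limma and a median of -0.085, with 0 after and 2 before adjustment by the analysis of variance. Among the transcription factors, Tcf21, a regulator of epicardial and fibroblast fate, was called in both comparisons (0.56 against the LV, adjusted p = 0.0208; 0.52 against the Septum, adjusted p = 0.0378), and Tbx18 and Bnc2 in neither. Unlike the 9 genes above, its mean differed by 0.034 between the Septum and the LV.

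Among enzymes and secreted proteins, Sema3d, a guidance factor, was called against the LV (1.30, adjusted p = 0.00664) and the Septum (1.31, adjusted p = 0.00988). Rspo1 (3.14, adjusted p = 0.0113), the insulin-like growth factor binding protein Igfbp6 (1.25, adjusted p = 0.0279) and Aldh1a2, the enzyme of retinoic acid synthesis (1.17, adjusted p = 0.0489), were called against the Septum. The keratin pair Krt8 and Krt18 rose against the Septum (2.95, adjusted p = 0.0291, and 2.35, adjusted p = 0.0086), and Krt18 also against the LV (1.62, adjusted p = 0.0259). So did Nkain4 (3.78, adjusted p = 0.0214) and the tight junction protein Cldn15 (1.75, adjusted p = 0.028) against the Septum. Ezr, which ties the membrane to actin, and the receptor phosphatase Ptprf were called against both regions, Ezr by 0.35 and 0.38 and Ptprf by 0.86 and 1.09. Anxa8 (1.40, adjusted p = 0.0168) and Ildr2 (1.79, adjusted p = 0.024) were called against the LV. Ildr2, Krt7, Bnc2 and Crb2 passed the background filter through the RV alone. The call of Ildr2, and the counts and medians that hold these genes, are therefore descriptions. Krt8 and Nkain4 passed through the RV and the LV but not the Septum.

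Of the listed genes not tested, Calb2, the calretinin gene used as a mesothelial marker in pathology, Itln1 and Cdh1 were well above background on 0 of the 10 arrays, and Saa3, Krt5, Cldn1 and Upk3bl on some arrays but not on all of any region. With slide as a block 20 of 26 genes were called against the LV and 19 against the Septum, where 17.6% and 8.74% of all probes were called. With the replicate block 19 and 18 were called, against 14.9% and 7.12% of all probes. The list was chosen with earlier results of these data known, so these counts are descriptions. Leaving out single arrays gave 2 (without LV replicate 2 or LV replicate 3), 3 (without RV replicate 2), 4 (without RV replicate 1, RV replicate 4 or LV replicate 1), 7 (without any 1 Septum array) or 10 calls (without RV replicate 3) against the LV. Against the Septum it gave 1 call without Septum replicate 2, 4 without RV replicate 1, RV replicate 2, RV replicate 4 or Septum replicate 3, 6 without LV replicate 1, 7 without LV replicate 2, and 9 to 12 without Septum replicate 1, LV replicate 3 or RV replicate 3. In these fits 390 to 980 of all probes were called against the LV and 118 to 542 against the Septum.

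Markers of other cells that a piece of heart wall can hold moved with the regions to different degrees. Cardiomyocyte (8 genes), endothelial (8) and blood (5) markers tested had 0 calls in limma in all 3 comparisons, with medians between -0.29 and 0.10, and all 8 cardiomyocyte genes were well above background on all 10 arrays, as the label of heart tissue requires. Of 8 fibroblast markers, Pdgfra (0.40, adjusted p = 0.0364) and Dcn (0.46, adjusted p = 0.0428) were called against the LV and 0 against the Septum, with medians of 0.57 and 0.34. The summed linear signal of the fibroblast list ran from 569 to 674 in the RV, 415 to 453 in the LV and 484 to 518 in the Septum. Its part in the differences of the mesothelial genes was not tested.

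Of 8 adipocyte markers, 4 were called against the LV (Adipoq, Plin1, Cidec and Retn) and 2 against the Septum (Plin1 and Cidec), all higher in the RV. Cidec, a lipid droplet protein well above background on all arrays, had means of 2.06 in the RV, -2.18 in the LV and -0.13 in the Septum. The order of its means was RV, Septum and LV, as for Adipoq, Plin1 and Retn, where that of all 9 mesothelial genes was RV, LV and Septum. Fabp4, Lep and Pparg had their lowest mean in the RV and their highest in the LV, and Lipe ran RV, LV and Septum, with none of these 4 called. Adipoq and Plin1 were well above background on 0 of 3 LV arrays. Plin1 was so on 1 of 3 Septum arrays and passed the filter through the RV alone, so its calls are descriptions. The summed signal of the adipocyte list, in which Fabp4 weighs most, overlapped between regions, from 93.9 to 119 in the RV, 108 to 134 in the LV and 99.6 to 132 in the Septum. Its part in the mesothelial differences was not tested.

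Atrial markers spread widely within the Septum. Their summed signal was 837 in Septum replicate 1 against 374 and 420 in the other Septum arrays, 202 to 286 in the RV and 351 to 378 in the LV. Clu, with means of 7.41 in the RV and 7.90 in the LV, weighs most in the RV and LV sums, followed in the LV by Nppa (6.61). Sln, Myl7 and Myl4 had means of 1.61, 3.30 and 3.88 in the RV and 1.70, 2.79 and 3.63 in the LV. In the Septum they were 3.61, 4.73 and 5.68, and none of these 3 genes was called. Of the Septum arrays, replicate 1 was the highest for 7 of the 9 mesothelial genes and the lowest for Wt1 and Bnc1. Dkk3 (3.08, adjusted p = 0.01) was called higher in the RV than in the LV, and Clu was lower in the RV than in the LV (-0.49, adjusted p = 0.00824) and the Septum (-0.55, adjusted p = 0.00817). The atrial share in the mesothelial levels was not tested. Among the Schwann cell and neuron markers, Mbp was called against both regions (1.29 and 1.79) and S100b against the LV (0.78). Of 8 lung epithelium markers, Sftpc, Sftpa1, Sftpd and Foxj1 were well above background on 0 of 10 arrays and Epcam and Sftpb on 1 each. Ager was well above background on all 10 arrays, with means of 0.77 in the RV, 0.80 in the LV and 0.75 in the Septum, and Scgb1a1 on 9, and neither was called.

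**Figure D4:**
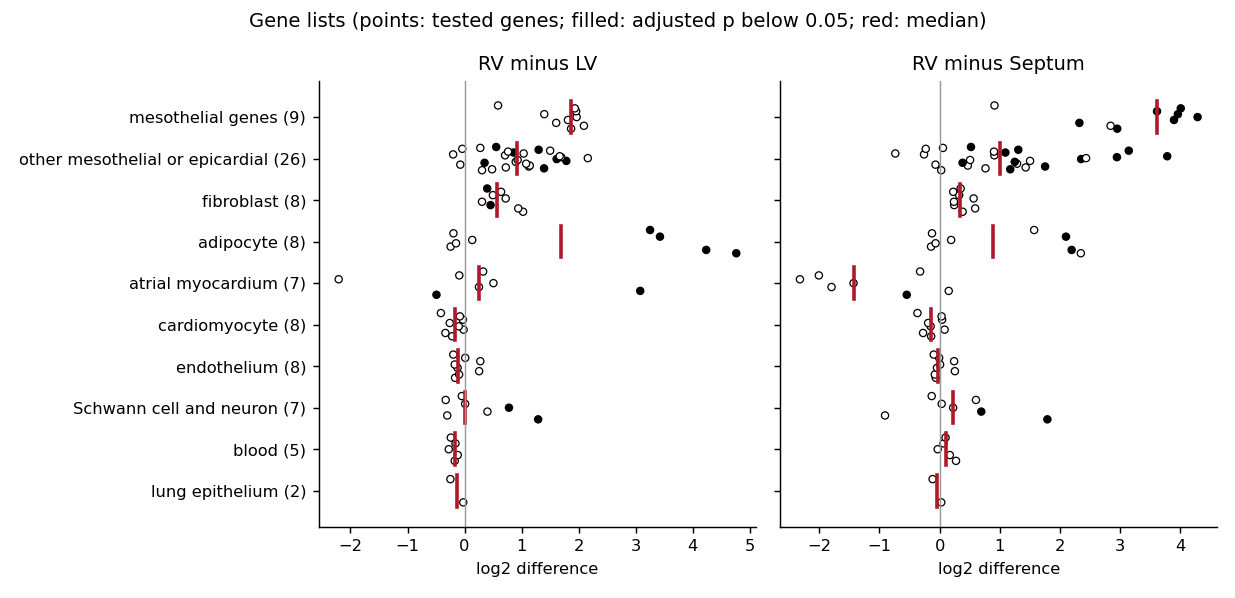
Difference of each tested gene of 10 lists on the log2 scale, RV minus LV and RV minus Septum, filled where the adjusted p was below 0.05 and with the list median in red (number of genes tested in brackets). The mesothelial genes had medians of 1.87 and 3.61 with 0 and 7 of 9 filled, the other mesothelial or epicardial genes 0.92 and 1.0 with 7 and 11 of 26 filled, and cardiomyocyte, endothelial and blood genes lay near 0.

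Of the complement genes that the study is about, C3 had a correlation of 0.94 with the mesothelial score over the 10 arrays, Cfd 0.51 and C3ar1 0.40. After each region's mean was subtracted the correlations were 0.77, 0.20 and -0.36. These genes were singled out for the study's topic after the values were known. C3 had means of 6.76 in the RV, 5.87 in the LV and 5.41 in the Septum, and C3ar1 had means of -1.82, -2.03 and -2.07. Cfd, the gene of complement factor D, had means of 4.22 in the RV, -0.56 in the LV and 1.95 in the Septum, in the order of Adipoq, Plin1, Cidec and Retn.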

How the data were processed

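Regions and replicate numbers were read from the titles. The authors deposited intensity values per spot, made with Agilent Feature Extraction (11.5.1.1 according to the deposited headers), which subtracts the background of each spot and flags spots, with no scaling between arrays. A second deposited file gave log2 values by probe, made with GeneSpring according to the methods, which lay within 0.05 of the values computed here after removal of a constant for 100% of the probes compared on each array.

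After removal of control spots and of 56 to 128 outlier spots per array, log2 processed signals were averaged by probe and set relative to the array's 75th percentile. The filter on dim probes kept 30234 of 56605 probes (53.4%), those well above background on all arrays of 1 or more regions. Names came from the RefSeq accession without its version and a table of assembly GRCm38.p6, found for 32989 probes (58.3%). The array files name another assembly, so no gene coordinates are given apart from the promoter windows of GRCm38.p6. The brightest probe stood for a gene.

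The comparisons used limma 3.58.1 in R 4.3.3 on all 10 arrays, with one mean per region (lmFit and eBayes, 2.46 prior degrees of freedom), two-sided, with Benjamini-Hochberg adjustment over all probes and calls below 0.05. Simulated data with known changes were used to test the code. The study's analysis of variance with Tukey's correction served as an alternative to limma, which borrows information on the spread between probes. Further alternatives were other scalings, normexp with an offset of 50, the authors' table, other filters, slide and replicate number as blocks, single slides, pairs of regions, the mean over probes and leaving out each array. The normexp correction used median signals, where mean signals had been planned, because the median is the signal column the files hold. The members and the gene lists were chosen with earlier results of these data known. The genes named are all members, the called genes of the other lists, and the genes closest to the members' mean.

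Arrays with the same number in different regions deviated together from their region means, with correlations of 0.36 to 0.64 in all 9 pairs. These arrays also shared a slide, and whether they hold samples of one animal is not given. The replicate block is therefore an alternative fit and not an established pairing. Arrays of different number had correlations of 0.09 to 0.58 on the same slide (8 pairs) and -0.56 to -0.21 on different slides (16 pairs). On slide 1 those of different number reached 0.31, below those of the same number. On slide 2 RV replicate 4 had 0.57 with LV replicate 3 and 0.58 with Septum replicate 3. These exceeded the 0.43 and 0.44 of RV replicate 3 with the same arrays.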

Additional observations from a re-analysis of the deposited data

How the results depend on the processing

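With the replicate block, which treats samples of the same number as a pairing, 6 of the 9 mesothelial genes were called in RV against LV and 8 in RV against Septum, and 19 and 18 of the 26 other mesothelial or epicardial genes. Probes called over the 3 regions together, in RV against LV and in RV against Septum were 842, 1167 and 628 as reported, 2671, 4512 and 2154 with the replicate block, 4500, 5795 and 3186 with the number as a random block (69 in Septum against LV), and 3826, 5331 and 2643 with slide as a block (14 in Septum against LV). Mesothelial genes called in RV against LV, 0 as reported, were 8 with slide as a block or a random block, 4 in slide 1 alone, 2 with normexp, 1 with quantile normalization and 1 by the unadjusted analysis of variance. In RV against Septum the 7 became 0 without a filter, 1 among probes well above background on all arrays, where 2 genes were left, 2 in slide 2 alone or with 2 regions in the fit, and 0 by the adjusted analysis of variance. Septum against LV gave 1 by the unadjusted one.

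Without a filter the probes called were 178, 269 and 112, in slide 1 alone 354 over the 3 regions, and in slide 2 alone 281, 331 and 171, with 1 in Septum against LV. They were 684 in RV against LV with scaling by the median, and 633 and 263 with 2 regions in the fit. In Septum against LV they were 2 with quantile normalization and 3 with normexp. The unadjusted analysis of variance gave 4904, 3998, 2754 and, in Septum against LV, 435 probes. With the analysis over the 3 regions adjusted, and Tukey's p-values not, 168 probes passed in Septum against LV. The other mesothelial or epicardial genes called against the LV were 2 without a filter, 20 with slide or a random block and 11 by the unadjusted analysis of variance. Against the Septum they were 2 without a filter, 19 with slide as a block, 18 with a random block, 4 in slide 2 alone or with 2 regions, and 5 by the adjusted analysis of variance. In Septum against LV they were 1 with a random block and 2 by the unadjusted analysis of variance. The median difference of the mesothelial genes was 0.99 (RV against LV) and 2.44 (RV against Septum) among probes well above background on all arrays, and 2.18 (RV against Septum) and -0.66 (Septum against LV) with normexp.

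Leaving out an array gave 298 to 706, 390 to 980, 118 to 542 and 0 to 3 probes. It gave 0 to 1, 0 to 7 and 0 mesothelial genes, medians of 1.5 to 2.28, 3.0 to 4.35 and -2.39 to -1.07, and 2 to 10, 1 to 12 and 0 other genes. The direction of each mesothelial gene held in each alternative, except that the dimmer probe of Upk1b turned to 0.026 for Septum minus LV in slide 2 alone. Of called probes, 59.7% were higher in the RV than in the LV, and 75.9% when the percentile was taken over probes well above background on all arrays. Against the Septum this share was 58.0%, and 73.0% with scaling by the median. Fits on slide 2 have 1 LV and 1 Septum array, which are assumed to vary like the others. The cause of these changes was not tested. Signals near background limit what the LV and Septum levels of Bnc1, Lrrn4 and Dmkn can show.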
